A study of Mus musculus with 24 samples.

Results

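The brush border hydrolases are membrane enzymes on the microvilli of small intestinal enterocytes. They were followed here as 10 listed genes: the disaccharidases Lct, Sis, Mgam and Treh, the peptidases Anpep, Enpep, Dpp4 and Tmprss15, and the alkaline phosphatases Akp3 and Alpi. The genes were taken by symbol, and all 10 were found among the 18820 genes measured, each with 1 probe set. Along the intestine of wild-type mice Lct fell steeply between jejunum and ileum, Tmprss15 and Akp3 fell steeply between duodenum and jejunum, and Anpep, Enpep, Dpp4, Sis and Mgam stayed within a log2 unit in every segment. In mice without caspase-1, Tmprss15 and Akp3 were higher in ileum and Enpep was lower in liver, calls that were each lost when certain single arrays were left out. No member passed the test for genotype in duodenum or jejunum.

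The brush border carries the last steps of digestion. Disaccharidases release monosaccharides from milk sugar, starch fragments and other short sugars, peptidases shorten peptides from their ends, and the released sugars, amino acids and small peptides are taken up by transporters in the same membrane. Intestinal alkaline phosphatase removes phosphate groups from lipids, nucleotides and bacterial endotoxin, and enteropeptidase, the product of Tmprss15, starts the activation of pancreatic proteases. These enzymes are classical markers of differentiated enterocytes, and several of them are known to be restricted to parts of the intestine in adult mammals.

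Transcripts were measured on 24 Affymetrix arrays in 8 groups of 3, made by duodenum, jejunum, ileum and liver in male wild-type and Casp1-null mice aged 14 to 16 weeks and fed chow. The Casp1-null line had been crossed back to C57Bl/6 for 10 generations and the controls were C57Bl/6J, so genotype and remaining strain differences cannot be told apart. Intestinal epithelium was scraped from mice that had fasted overnight and then received 200 µL of olive oil into the stomach 2 h earlier, whereas liver came from mice fasted for 16 h with no oil. The labelled material was made from 100 ng of RNA per sample. Caspase-1 cleaves precursors of inflammatory cytokines, and the series asks how its loss affects secretion of triglyceride-rich lipoproteins. The series gives 3 mice per genotype but not which tissues came from the same mouse, and liver and intestine were taken after different treatments. The p-values refer to the spread between arrays. Apart from the mean over segments, which averages same-numbered arrays, the main fits do not use any sharing of mice between segments.

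Values are log2 intensities after robust multi-array averaging (RMA), which has no detection call. The median of an array was 4.874 to 5.005 for intestine and 5.187 to 5.224 for liver. Where the mean of a group fell below the lowest of these medians for that organ, the gene was not taken as shown above background. Casp1 fell 4.21-fold in duodenum, 8.41-fold in jejunum and 4.66-fold in ileum of Casp1-null mice, and had group means under the array medians in liver of both genotypes. The 8 enterocyte markers averaged 12.17 to 12.53 on the intestinal arrays, and the 9 hepatocyte markers averaged 12.93 to 13.16 on the liver arrays. In duodenum, 1 wild-type array had a mean of 10.04 over 8 measured exocrine pancreas markers against 3.79 to 4.26 on the other 5. In ileum, wild-type array 2 and Casp1-null array 3 averaged 8.89 and 8.6 over 10 smooth muscle and stroma markers against 4.38 to 4.63 on the other 4. In bulk tissue, fewer cells of a type and less RNA per cell cannot be told apart.

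**Figure D1:**
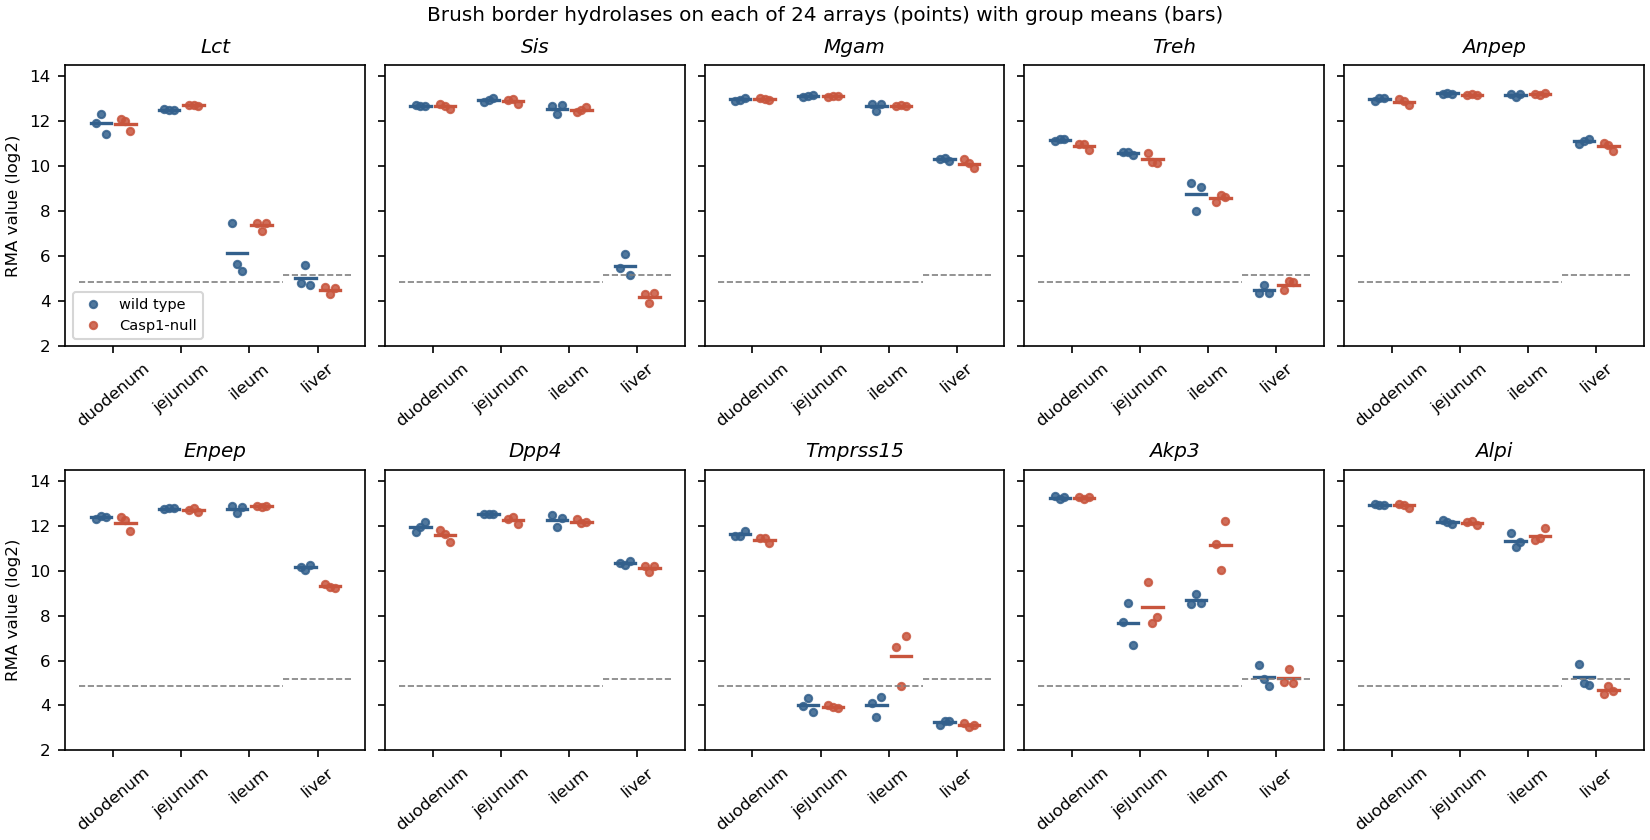
RMA values (log2) of the 10 hydrolases on every array, with 3 points and a mean bar per group and dashed lines at the lowest array median of intestine (4.874) and liver (5.187). Tmprss15 and Akp3 drop after the duodenum, Lct drops in the ileum, and the Casp1-null ileal points of Tmprss15 (4.87 to 7.1) and Akp3 (10.04 to 12.22) lie above the wild-type points.

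Among the disaccharidases, Lct encodes lactase, which splits the sugar of milk. In wild-type duodenum its values were 11.95, 12.33 and 11.44, and in wild-type jejunum 12.57, 12.53 and 12.5. In wild-type ileum they were 7.49, 5.64 and 5.33. All 3 ileal arrays lay far below the other segments, and ileal array 1 stood above the other ileal arrays. The difference between ileum and jejunum was -6.38 (log2, SE 0.396), an 83.2-fold fall with an adjusted p of 1.06e-07 (132-fold without ileal array 1). In Casp1-null mice the values were 12.09, 12.03 and 11.57 in duodenum, 12.73, 12.74 and 12.7 in jejunum, and 7.48, 7.12 and 7.5 in ileum. The fall from jejunum to ileum was 40.9-fold there (-5.36, SE 0.396, adjusted p = 1.09e-06). Jejunum and duodenum differed by 0.62 in wild type (95% interval -0.22 to 1.47), which did not pass the test.

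Sis encodes sucrase-isomaltase and Mgam maltase-glucoamylase, a related pair that share the digestion of sucrose and starch products. Sis read 12.74, 12.69 and 12.67 in wild-type duodenum, 12.85, 12.97 and 13.06 in jejunum, and 12.67, 12.32 and 12.73 in ileum. The jejunal arrays lay above all arrays of the other segments, by a small margin. Sis was 1.31-fold lower in ileum than in jejunum in wild type (-0.38, SE 0.111, adjusted p = 0.035) and in Casp1-null mice (-0.39, SE 0.111, adjusted p = 0.0364). In wild type that call was lost without ileal array 2 (adjusted p = 0.171), without jejunal array 2 (0.0856) or 3 (0.122), after a second quantile normalization (0.0782), and without the arrays high in stroma or pancreas markers (0.188). In Casp1-null mice it was lost without array 1 or 2 of either segment (adjusted p of 0.0719 to 0.147). Mgam had means of 12.98 ± 0.058 in wild-type duodenum, 13.14 ± 0.05 in jejunum and 12.68 ± 0.187 in ileum (SD, n = 3 each). It was 1.37-fold lower in ileum than in jejunum (-0.45, SE 0.0859, adjusted p = 0.00267), and 1.33-fold lower in Casp1-null mice (-0.41, SE 0.0859, adjusted p = 0.00678). These values lay near the top of the scale, whose highest reading on any array was 13.98, and whether differences are compressed there was not tested.

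Treh encodes trehalase, which splits the disaccharide of fungi and insects. Its values were 11.14, 11.21 and 11.23 in wild-type duodenum, 10.64, 10.63 and 10.51 in jejunum, and 9.24, 8.02 and 9.08 in ileum. The 3 segments did not overlap, and the order ran from duodenum down to ileum. The step from duodenum to jejunum (-0.6, 95% interval -1.09 to -0.11) had an adjusted p of 0.166, and the step from jejunum to ileum was a 3.52-fold fall (-1.82, SE 0.231, adjusted p = 0.000112). Treh therefore fell 5.34-fold over the whole length in wild type (-2.42, SE 0.231, adjusted p = 2.69e-06). In Casp1-null mice its means were 10.91 ± 0.149 in duodenum and 8.59 ± 0.148 in ileum (SD, n = 3 each), and it fell 4.98-fold (-2.32, SE 0.231, adjusted p = 5.94e-06).

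The promoters of Lct and Sis are shown because Lct fell steeply in ileum while Sis stayed within a log2 unit over the segments. The sequences are RefSeq's for GRCm38.p6, 250 bases before the annotated start, 5′ to 3′ on the strand of the gene. Lct lies at chr1:128328319-128328568 (minus strand) and Sis at chr3:72967864-72968113 (minus strand). Capitals mark matches on either strand to the core TTTAT of CDX factors, the core GATAA of GATA factors, the HNF1 palindrome or its arm GTTAAT, and matches that touch or overlap run together.
Lct: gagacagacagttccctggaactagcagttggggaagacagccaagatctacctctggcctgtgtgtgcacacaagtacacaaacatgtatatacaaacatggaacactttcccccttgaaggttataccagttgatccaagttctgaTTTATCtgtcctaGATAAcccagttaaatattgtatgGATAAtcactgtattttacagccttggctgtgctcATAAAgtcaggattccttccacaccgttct
Sis: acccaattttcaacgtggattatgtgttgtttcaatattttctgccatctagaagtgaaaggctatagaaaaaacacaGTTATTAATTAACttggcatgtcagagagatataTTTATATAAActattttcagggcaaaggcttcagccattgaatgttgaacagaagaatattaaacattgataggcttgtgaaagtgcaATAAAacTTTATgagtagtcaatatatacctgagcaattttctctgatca
The Lct promoter held 3 GATA matches and 2 CDX matches, of which 1 CDX match and 1 GATA match overlap in the capitals TTTATC. The Sis promoter held 4 CDX matches, no GATA match, and the HNF1 palindrome as GTTATTAATTAAC at -172 to -160, which contains the GTTAAT arm on the opposite strand. The palindrome occurred in 0.0335% of 32851 promoters of the same length and in no other member. The short cores are common: GATAA occurred in 22.6% of promoters and in 4 of the 10 members (Lct, Mgam, Enpep, Dpp4), and TTTAT in 37.3% of promoters and in 7 members. A match is a description of letters, not a site of binding. Of 17 measured transcription factors of enterocyte genes, 3 rose and 4 fell from wild-type jejunum to ileum, where 15.4% of all genes were called. Gata4, a GATA factor of the upper intestine, fell 18.2-fold (-4.19, SE 0.263, adjusted p = 1.18e-07). Of the other GATA factors, Gata6 fell 1.84-fold (-0.88, SE 0.149, adjusted p = 0.00123) to a mean of 10.64 ± 0.256, and Gata5 did not pass the test (0.12, adjusted p = 0.692), at 10.24 ± 0.343 in jejunum and 10.36 ± 0.237 in ileum (SD, n = 3 each).

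Among the peptidases, Anpep encodes aminopeptidase N, which removes neutral residues from peptides, and Enpep encodes aminopeptidase A, which removes acidic ones. Anpep had means of 13.0 ± 0.082 in wild-type duodenum, 13.25 ± 0.025 in jejunum and 13.16 ± 0.076 in ileum (SD, n = 3 each). Its rise from duodenum to jejunum was 1.19-fold in wild type (0.25, SE 0.0798, adjusted p = 0.0876). It passed the test in 3 alternatives, namely array weights (0.0472), a mean-variance trend (0.0346) and a second quantile normalization (0.0138). In Casp1-null mice the rise was 1.23-fold (0.3, SE 0.0798, adjusted p = 0.0468), and that call was lost without array 2 or 3 of duodenum or any array of jejunum, and under median centring (adjusted p = 0.0639). Enpep read 12.28, 12.44 and 12.38 in wild-type duodenum, 12.74, 12.78 and 12.77 in jejunum, and 12.86, 12.58 and 12.81 in ileum. All duodenal arrays lay below all arrays of the lower segments. Enpep was 1.3-fold higher in wild-type ileum than duodenum (0.38, SE 0.127, adjusted p = 0.042). This call was lost without any array of duodenum or without ileal array 1 or 3 (adjusted p of 0.0647 to 0.131), and under median centring (0.0832). In Casp1-null mice the same difference was 1.65-fold (0.72, SE 0.127, adjusted p = 0.00091).

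Dpp4 encodes dipeptidyl peptidase 4, which removes dipeptides ending in proline or alanine and inactivates incretin hormones. Its values were 11.73, 11.96 and 12.15 in wild-type duodenum, 12.53, 12.53 and 12.51 in jejunum, and 12.48, 11.96 and 12.32 in ileum. The jejunal arrays agreed closely and lay above every duodenal array, and the ileal arrays overlapped the duodenal range. Dpp4 rose 1.49-fold from duodenum to jejunum in wild type (0.58, SE 0.153, adjusted p = 0.0379) and 1.59-fold in Casp1-null mice (0.67, SE 0.153, adjusted p = 0.0205). The wild-type call was lost when any jejunal array or duodenal array 1 or 2 was left out (adjusted p of 0.0916 to 0.17), and under median centring (0.0572). The Casp1-null call was lost without duodenal array 2 or 3 or jejunal array 1 or 2 (0.0513 to 0.101).

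Tmprss15 encodes enteropeptidase, which cleaves trypsinogen in the duodenal lumen. It read 11.53, 11.53 and 11.76 in wild-type duodenum, 3.96, 4.34 and 3.7 in jejunum, and 4.13, 3.47 and 4.39 in ileum. Jejunum and ileum of wild-type mice lay under the array medians, so the transcript was shown above background in duodenum only. The fall to jejunum was at least 106-fold in wild type (fitted difference -7.61, SE 0.399, adjusted p = 3.71e-08). In Casp1-null mice the values were 11.45, 11.46 and 11.22 in duodenum and 4.01, 3.94 and 3.89 in jejunum. The fall was at least 90.7-fold there (fitted difference -7.43, SE 0.399, adjusted p = 5.67e-08). From Casp1-null jejunum to ileum Tmprss15 rose at least 2.48-fold (fitted difference 2.24, SE 0.399, adjusted p = 0.0023; 2.9 without Casp1-null ileal array 2).

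Akp3 encodes the duodenal form of intestinal alkaline phosphatase and Alpi the form made along the whole small intestine. Akp3 read 13.3, 13.18 and 13.26 in wild-type duodenum, 7.71, 8.55 and 6.71 in jejunum, and 8.5, 8.97 and 8.58 in ileum. The duodenal arrays stood far above the rest, and the jejunal and ileal ranges overlapped narrowly. Akp3 fell 48.1-fold from duodenum to jejunum in wild type (-5.59, SE 0.53, adjusted p = 1.24e-05) and 29.1-fold in Casp1-null mice (-4.86, SE 0.53, adjusted p = 5.75e-05). In Casp1-null mice Akp3 read 13.26, 13.18 and 13.26 in duodenum and 9.5, 7.68 and 7.93 in jejunum, overlapping the wild-type range in both. From Casp1-null jejunum to ileum Akp3 rose 6.82-fold (2.77, SE 0.53, adjusted p = 0.0038), where the wild-type difference of 1.03 (95% interval -0.1 to 2.16) did not pass the test. Alpi read 12.96, 12.9 and 12.92 in wild-type duodenum, 12.24, 12.16 and 12.09 in jejunum, and 11.67, 11.05 and 11.28 in ileum. The 3 segments did not overlap and descended in order. Alpi fell 1.7-fold from duodenum to jejunum (-0.76, SE 0.148, adjusted p = 0.00627) and a further 1.78-fold to ileum (-0.83, SE 0.148, adjusted p = 0.00177). In Casp1-null mice it read 12.98, 12.94 and 12.8 in duodenum, 12.16, 12.2 and 12.01 in jejunum, and 11.36, 11.44 and 11.89 in ileum, in the same order and again without overlap.

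The promoters of the duodenal genes Tmprss15 and Akp3 are shown with that of Alpi, which is the neighbour and close relative of Akp3. They lie at chr16:79091098-79091347 (Tmprss15, minus strand), chr1:87124704-87124953 (Akp3, plus strand) and chr1:87101607-87101856 (Alpi, minus strand) in the same RefSeq build. In Tmprss15 capitals mark 1 CDX match and 1 GTTAAT match on the opposite strand. In Akp3 and Alpi capitals mark 13-base runs that both promoters share with that of the related gene Alppl2.
Tmprss15: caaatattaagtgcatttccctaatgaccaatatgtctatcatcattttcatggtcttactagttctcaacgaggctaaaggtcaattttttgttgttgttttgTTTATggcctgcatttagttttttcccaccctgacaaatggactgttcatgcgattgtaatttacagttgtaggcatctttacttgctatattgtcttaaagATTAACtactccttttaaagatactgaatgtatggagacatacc
Akp3: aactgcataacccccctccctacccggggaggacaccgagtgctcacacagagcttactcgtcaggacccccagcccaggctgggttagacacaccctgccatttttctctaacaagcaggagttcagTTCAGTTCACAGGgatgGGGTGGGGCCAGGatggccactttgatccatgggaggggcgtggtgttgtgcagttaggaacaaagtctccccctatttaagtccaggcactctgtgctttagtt
Alpi: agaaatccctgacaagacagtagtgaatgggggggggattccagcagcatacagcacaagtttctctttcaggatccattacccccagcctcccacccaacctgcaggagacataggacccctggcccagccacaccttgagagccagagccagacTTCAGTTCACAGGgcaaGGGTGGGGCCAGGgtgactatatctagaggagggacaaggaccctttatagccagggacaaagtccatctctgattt
The run TTCAGTTCACAGG occurred in 5 of 32851 promoters (0.0152%) and GGGTGGGGCCAGG in 10 (0.0304%), counts that include Akp3, Alpi and Alppl2. The runs were picked as stretches shared by the promoters of these genes, so their presence in all of them is no separate result. Over 220 aligned bases, with 60 gap positions, the Akp3 and Alpi promoters were identical at 66.8%. Aligned the same way, Sis and Mgam gave 59.3% and Anpep and Enpep 56.0%. Alppl2 gave 77.6% with Alpi and 66.2% with Akp3. The Alpi promoter also held 1 CDX match and the HNF4 core CAAAGTCCA at -19 to -11, a match that 0.384% of promoters and, among the members, Treh and Alpi had. No match to the CDX, GATA, HNF1 or HNF4 motifs was found in the 250 bases of Akp3, which says only that these letters are not in this window. The genes are near copies, and how far their probe sets read each other's transcripts was not tested.

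**Figure D2:**
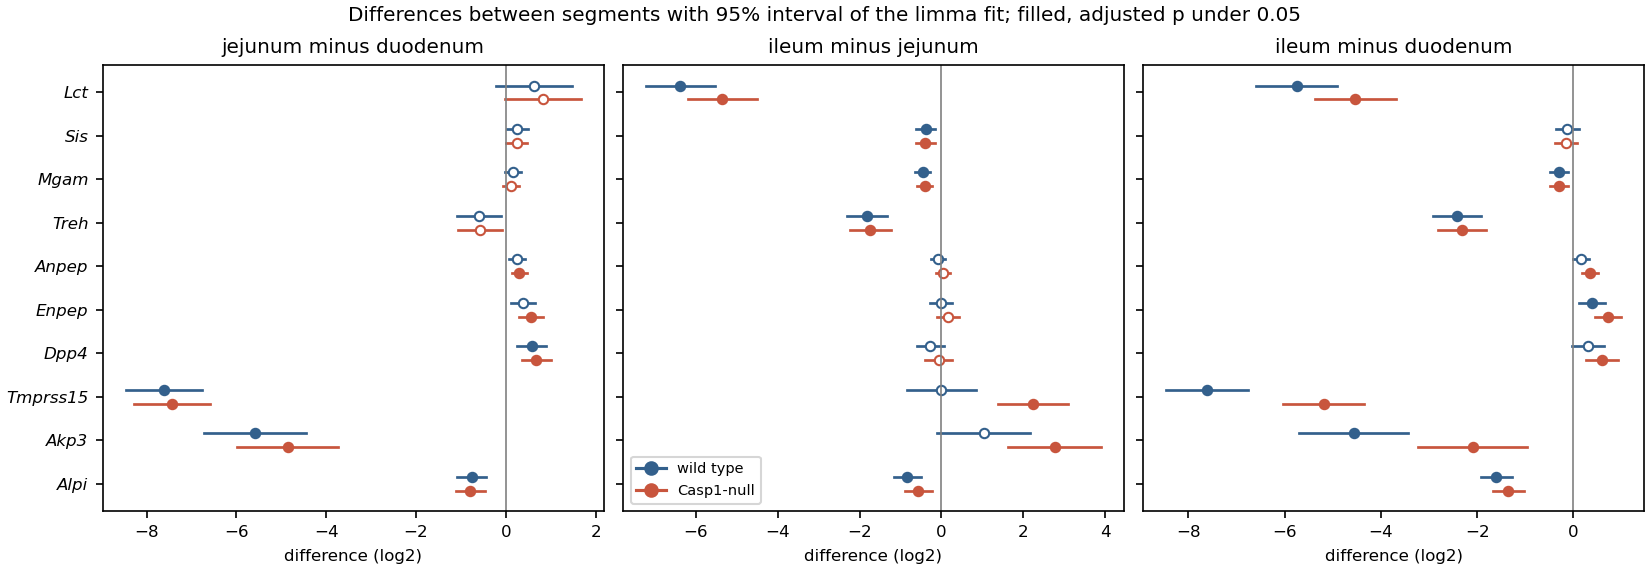
Differences between segments (log2) with 95% intervals of the limma fit for each hydrolase, in wild-type and Casp1-null mice, with filled points for an adjusted p under 0.05. Lct, Treh and Alpi lie left of 0 for ileum against jejunum in both genotypes, and Tmprss15 (2.24) and Akp3 (2.77) lie right of 0 in Casp1-null mice.

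Counts over the segments were read against all genes tested, with a gene called at an adjusted p under 0.05. From wild-type duodenum to jejunum 4 of 10 members were called (Dpp4 higher, Tmprss15, Akp3 and Alpi lower), against 7.76% of all genes. From jejunum to ileum 5 were called, all lower (Lct, Sis, Mgam, Treh, Alpi), against 15.4%. Between duodenum and ileum 7 were called, with Enpep higher and Lct, Mgam, Treh, Tmprss15, Akp3 and Alpi lower, against 27.9%. The call of Mgam there was lost without duodenal array 3 (adjusted p = 0.0715) or ileal array 2 (0.1). The median difference of the members between duodenum and ileum was -0.95, beside -0.05 over all genes. In Casp1-null mice the same counts were 6 (5.85% of all genes), 7 (12.8%) and 9 (21%). The count of 6 was 3 without duodenal array 3 or jejunal array 1 or 2. The comparisons share groups of arrays and are not independent of each other.

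Other hydrolases of the same membrane were measured for 18 of 20 listed genes. From wild-type duodenum to jejunum 5 rose and 0 fell, beside 7.76% of all genes called. Enpp7, alkaline sphingomyelinase, rose 40.1-fold (5.33, SE 0.72, adjusted p = 0.000336), or 24.9-fold without duodenal array 1 and 60.5-fold without duodenal array 2. Xpnpep2, an aminopeptidase that cleaves before proline, rose 7.34-fold (2.88, SE 0.248, adjusted p = 4.79e-06), and the meprin subunit gene Mep1a rose 3.08-fold (1.62, SE 0.217, adjusted p = 0.000305). From jejunum to ileum, where 15.4% of all genes were called, 2 of the 18 rose and 8 fell, among them the ectonucleotidase gene Enpp3, which fell 12.7-fold (-3.67, SE 0.303, adjusted p = 2.04e-06), and the neutral ceramidase gene Asah2, which fell 5.82-fold (-2.54, SE 0.339, adjusted p = 0.000174). Of 9 measured transporters for sugars, amino acids and peptides, 1 rose and 4 fell on the same step. The basolateral glucose and fructose transporter gene Slc2a2 fell 21.3-fold (-4.41, SE 0.608, adjusted p = 0.000234; 10.5-fold without ileal array 2 and 37.3-fold without ileal array 3), and Slc5a1, the sodium-glucose cotransporter gene, fell 1.51-fold (-0.6, SE 0.0894, adjusted p = 0.000441). Of 18 structural genes of microvilli and the terminal web, 1 was higher and 2 were lower on that step, a share near that of all genes, and their median difference was -0.16.

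Across the 18 intestinal arrays, each member was set against all other genes by Pearson's r and Spearman's rho, as a description. The arrays share 3 segments, so r mainly orders genes by position. Lct was most like Dll1, a Notch ligand gene (r = 0.979, rho = 0.796), and Sis most like Slc5a4a (0.902, 0.917). Mgam was most like Slc5a1 (0.975, 0.955), and Treh most like the hexose transporter gene Slc2a7 (0.985, 0.955). Anpep was most like Cndp2, which encodes a cytosolic dipeptidase (0.963, 0.812), and Enpep most like Aoc1 (0.966, 0.804). Dpp4 was most like Pls1, which encodes an actin bundler of microvilli (0.95, 0.946). Tmprss15 was most like Slc16a9 (0.993, 0.808) and then Pdx1, a duodenal and pancreatic transcription factor (0.988, 0.942). Akp3 was most like S100g, the calbindin of intestinal calcium uptake (0.97, 0.953), and then Vdr, the vitamin D receptor gene (0.944, 0.884), and Alpi most like Acad11 (0.985, 0.971).

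In liver, which served as the reference tissue, all 10 members were lower than in the mean of the segments in both genotypes. That was called for 10 of 10 in wild type, against 70.1% of all genes, and for 10 of 10 in Casp1-null mice, against 69.9%, so that a call alone sets no gene apart here. Tissue, feeding state and scraping of the epithelium cannot be told apart in this comparison. Mgam, Anpep, Enpep and Dpp4 lay above the array medians on all 6 liver arrays, with wild-type means of 10.31 ± 0.061, 11.12 ± 0.128, 10.16 ± 0.11 and 10.33 ± 0.091 (SD, n = 3 each). Anpep and Dpp4 are known on the bile canaliculi of hepatocytes. Intestine exceeded liver 3.76-fold for Dpp4 in wild type (1.91, SE 0.117, adjusted p = 2.02e-11) and 6.13-fold for Mgam (2.62, SE 0.0767, adjusted p = 1.11e-16). Treh and Tmprss15 lay under the liver medians on all 6 arrays, so duodenum exceeded liver at least 64.3-fold for Treh and at least 85.7-fold for Tmprss15 in wild type. Wild-type ileum and liver overlapped for Lct, with a lowest ileal array of 5.33 and a highest liver array of 5.59.

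Casp1-null and wild-type mice were compared within each segment. In ileum, Tmprss15 and Akp3 were called higher in Casp1-null mice, 2 of 10 members against 0.893% of all genes. In duodenum 0 of 10 members were called by limma (1.21% of all genes), and 1 had an unadjusted p under 0.05 (13% of all genes). In jejunum 0 of 10 were called by limma (2.06%) and 0 had an unadjusted p under 0.05 (12.9%). For the mean over segments 0 of 10 were called by limma (2.07%) and 3 had an unadjusted p under 0.05 (14.3%). For Sis the 95% intervals of the genotype difference were narrow, at -0.26 to 0.21 in duodenum, -0.28 to 0.19 in jejunum and -0.29 to 0.18 in ileum. For Akp3 they were wide, at -1.14 to 1.12 in duodenum and -0.42 to 1.84 in jejunum. These intervals use a spread pooled over all segments. The duodenal Akp3 arrays themselves agreed closely, with an SD of 0.064 in wild type and 0.044 in Casp1-null mice. In jejunum the SDs were 0.917 and 0.985. Of the 18 other brush border hydrolases, limma called 0 for genotype in each segment, with 4 in duodenum, 3 in jejunum and 1 in ileum at an unadjusted p under 0.05 (13%, 12.9% and 6.9% of all genes).

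**Figure D3:**
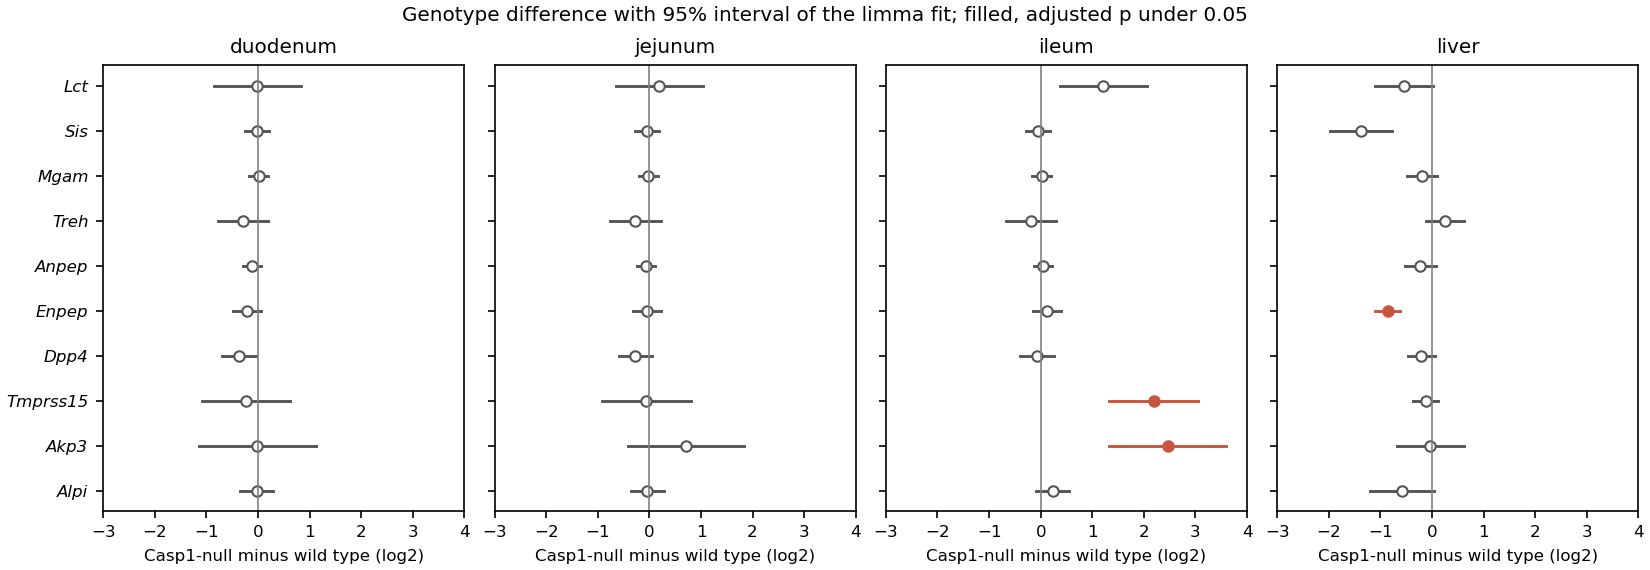
Casp1-null minus wild type (log2) for each hydrolase in the 4 tissues, with 95% intervals of the limma fit and filled points for an adjusted p under 0.05. Filled points are Tmprss15 (2.19) and Akp3 (2.46) in ileum and Enpep (-0.86) in liver.

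In Casp1-null ileum Tmprss15 read 6.59, 4.87 and 7.1, against 4.13, 3.47 and 4.39 in wild type. The groups did not overlap, and Casp1-null array 2 stood well below the other arrays of its group, at the level of the array medians. Wild-type ileum lay under the medians, so the rise was at least 2.48-fold (fitted difference 2.19, SE 0.399, adjusted p = 0.0152), and without Casp1-null array 2 the fitted difference was 2.84 (adjusted p = 2.16e-05). The SE pools the spread of all 18 intestinal arrays. The SD of Tmprss15 was 1.167 in Casp1-null and 0.473 in wild-type ileum, against 0.058 to 0.319 in the groups of the other segments. The call was lost without Casp1-null array 1 (adjusted p = 0.068) or 3 (0.0645), without wild-type array 2 (0.0722), in a fit of the ileal arrays alone (0.558), and without the 3 arrays high in stroma or pancreas markers (difference 1.47, adjusted p = 0.237).

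Akp3 read 11.17, 10.04 and 12.22 in Casp1-null ileum, against 8.5, 8.97 and 8.58 in wild type. All Casp1-null arrays lay above all wild-type arrays, and they spread over more than 2 log2 units. Their SD was 1.092, against 0.251 in wild-type ileum, 0.044 to 0.064 in duodenum and 0.917 to 0.985 in jejunum, all pooled in the fit. Akp3 rose 5.49-fold (2.46, SE 0.53, adjusted p = 0.0475). This call was at the threshold: it was lost without Casp1-null array 1 (adjusted p = 0.131) or 3 (0.2), without wild-type array 1 (0.17), 2 (0.087) or 3 (0.167), in the ileal arrays alone (0.321), and without the 3 arrays high in stroma or pancreas markers (difference 2.06, adjusted p = 0.314).

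Set against the mean of duodenum of the same genotype on a linear scale, ileal Akp3 was 3.73, 5.17 and 3.94% on the wild-type arrays and 23.9, 10.9 and 49.6% on the Casp1-null arrays. Duodenal Akp3 (13.18 to 13.3) lay near the top of the scale, and whether compression there affects these percentages was not tested. Ileal Tmprss15 was 0.561, 0.356 and 0.672% in wild type, at background, and 3.61, 1.1 and 5.15% in Casp1-null mice. The Casp1-null arrays fell in the same order for both genes, with array 3 highest and array 2 lowest. Alpi did not pass the test in ileum (0.23, 95% interval -0.09 to 0.55).

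Genes of the duodenum other than the members were followed on the same ileal arrays, a list made after the values had been seen and given no test. It held the 27 genes called at least 3 log2 units higher in wild-type duodenum than in wild-type jejunum. The list's median on the Casp1-null ileal arrays exceeded the wild-type ileal mean by 0.56, 0.12 and 1.42, with 22, 18 and 23 of the 27 above that mean. All genes gave -0.01, 0.01 and -0.04 on the same arrays. The array order was again that of Akp3 and Tmprss15, a match over 3 arrays that was not tested. On the wild-type ileal arrays, which set the mean, the list's median differed from it by -0.03, -0.02 and 0. There 10, 10 and 13 of the 27 genes lay above it. Values above the wild-type mean were also seen in jejunum, the segment used to choose the list, where Casp1-null arrays exceeded the wild-type jejunal mean by 0.54, 0.01 and 0.13 (22, 14 and 17 of 27 genes above it) and wild-type array 2 by 0.12 (21 of 27). Pdx1, a transcription factor of the duodenum, read 4.75, 4.19 and 5.41 in Casp1-null ileum and 4.01, 3.83 and 4.21 in wild-type ileum, with group means under the array medians in both. In percent of the duodenal mean, ileal Onecut2 averaged 3.15 in wild type and 6.25 in Casp1-null mice, and Gata4 3.43 and 4.88. The hormone gene Cck averaged 23.1 and 19.9, Sct 91.2 and 79.3, and Gip 5.03 and 5.66. Gip read 3.92, 6.92 and 6.69% on the Casp1-null arrays, in another order than Akp3. The part of such genes in the Akp3 and Tmprss15 values was not tested.

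**Figure D4:**
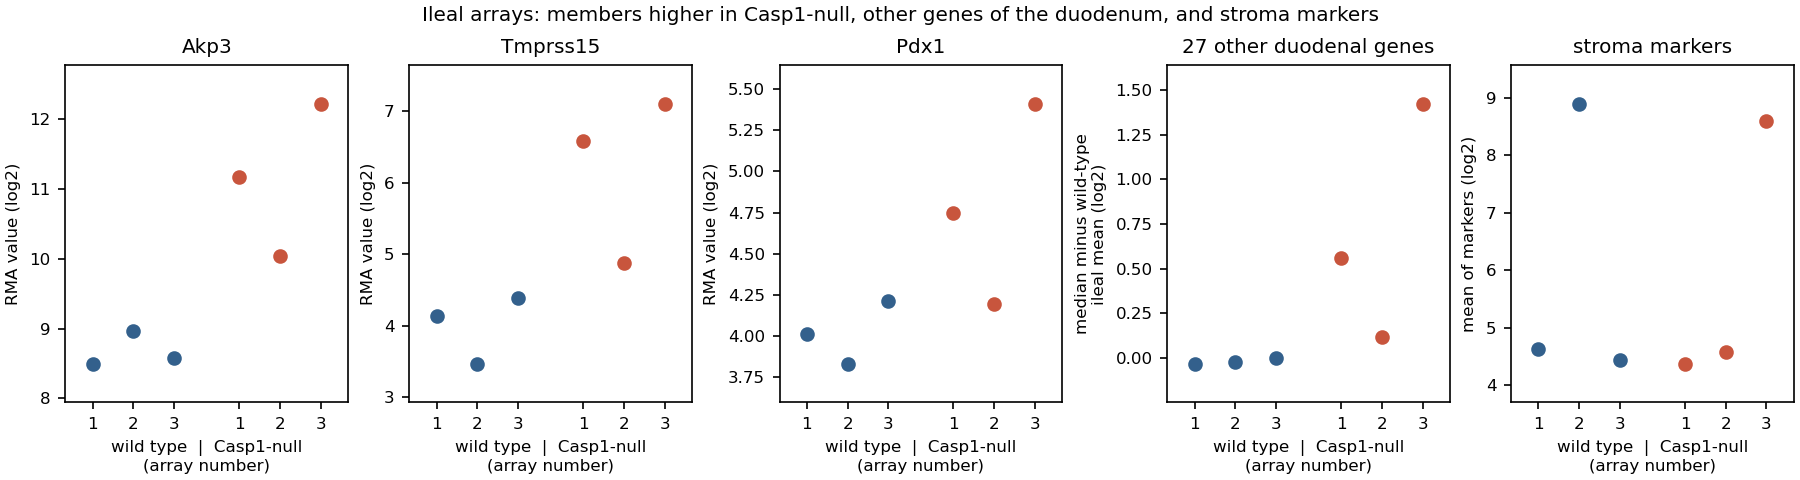
Values on the 6 ileal arrays: Akp3, Tmprss15 and Pdx1 (log2), the median of 27 other duodenal genes minus their wild-type ileal mean (log2), and the mean of 10 stroma markers (log2). Casp1-null array 3 is highest in the first 4 panels and Casp1-null array 2 lowest of its group, while the stroma markers are high on wild-type array 2 (8.89) and Casp1-null array 3 (8.6).

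Lct in ileum read 7.48, 7.12 and 7.5 in Casp1-null mice, against 7.49, 5.64 and 5.33 in wild type. Wild-type array 1 lay among the Casp1-null arrays. The difference of 1.21 (95% interval 0.37 to 2.06) did not pass the test (adjusted p = 0.346). Without wild-type array 1 it was 1.88 and passed (adjusted p = 0.000598).

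Whether the genotype difference itself differed between segments was tested by an interaction. No member was called (0 of 10 by limma's F test, against 0.117% of all genes), and 2 members had an unadjusted p under 0.05 (5.56% of all genes). For Tmprss15 the ileal difference exceeded the duodenal one by 2.42 (SE 0.564, adjusted p of the F test 0.334), and for Akp3 by 2.47 (SE 0.75, adjusted p of the F test 0.731). The higher ileal values of both genes are therefore not shown to be particular to the ileum. Without ileal Casp1-null array 2 the interaction of Tmprss15 was called (adjusted p = 0.00134), and without ileal wild-type array 1 that of Lct (adjusted p = 0.0421).

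In liver 1 of 10 members was called for genotype, against 0.925% of all genes, and 2 had an unadjusted p under 0.05 (12.8% of all genes). Enpep read 9.41, 9.25 and 9.23 in Casp1-null liver and 10.17, 10.04 and 10.26 in wild type. The groups did not overlap, and the gap was wide against the spread within each group. Enpep fell 1.82-fold (-0.86, SE 0.103, adjusted p = 0.0211). The difference stayed between -0.92 and -0.81 when single arrays were left out. The call was lost in 5 of these 6 fits, namely without Casp1-null array 2 (0.103) or 3 (0.0752) or wild-type array 1 (0.101), 2 (0.079) or 3 (0.103). In the list of other brush border hydrolases, 2 of 18 were called lower in Casp1-null liver. They were Mme, which encodes neprilysin (-1.11, SE 0.11, adjusted p = 0.0114), and Nt5e, which encodes the ectonucleotidase CD73 (-0.86, SE 0.0964, adjusted p = 0.018). Mme was not called without Casp1-null array 2 (0.0531) or wild-type array 2 (0.0732) or 3 (0.068). Nt5e was not called without Casp1-null array 2 or 3 or any wild-type array (0.0527 to 0.0986).

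Sis in liver read 4.3, 3.93 and 4.38 in Casp1-null mice and 5.48, 6.1 and 5.15 in wild type. The groups did not overlap, and the Casp1-null arrays lay under the liver medians, so wild type was higher by at least 1.31-fold. The fitted difference of -1.37 (SE 0.252) had an adjusted p of 0.0874 in the liver arrays. It passed the test in the fit of all 24 arrays (adjusted p = 6.74e-05), which pools the liver spread with the smaller spread of intestine.

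The liver difference was also set against the mean difference of the 3 segments in a fit of all 24 arrays, an interaction added after the liver values had been seen. It was called for 2 of 10 members, against 2.78% of all genes. For Sis the liver difference was lower by 1.33 (-1.33, SE 0.201, adjusted p = 0.00076) and for Enpep by 0.81 (-0.81, SE 0.138, adjusted p = 0.00239). In the mean over segments both genes differed little between genotypes, with intervals of -0.2 to 0.12 for Sis and -0.24 to 0.13 for Enpep.

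Markers of enterocytes and goblet cells were also lower on average in these livers. Of enterocyte markers 0 of 8 and of goblet markers 1 of 6 were called by limma, against 0.925% of all genes. In each list 5 had an unadjusted p under 0.05 (12.8% of all genes), and the goblet 5 include Tff3, which was higher. Of Paneth, crypt and enteroendocrine markers 0 were called and 0 had an unadjusted p under 0.05, with median differences of -0.11, -0.1 and -0.02. The mean of 8 enterocyte markers was 6.49, 6.73 and 6.53 in wild-type liver and 6.09, 6.05 and 6.25 in Casp1-null liver, and the groups did not overlap. The mean of 6 measured goblet markers was 5.82, 6.06 and 5.56 in wild type and 5.37, 5.46 and 5.32 in Casp1-null mice. The goblet gene Zg16, which encodes a lectin-like secreted protein, was called lower in Casp1-null liver (-1.72, adjusted p = 0.0387; 0.0571 to 0.141 without wild-type array 1 or 2 or any Casp1-null array), while Tff3, a trefoil factor of goblet cells, read higher there (7.54, 8.27 and 7.78 against 6.87, 6.84 and 6.4). The enterocyte markers Krt20, Cdh17 and Slc51a and the goblet markers Agr2, Spink4 and Spdef had means under the liver medians in both genotypes. Vil1, Epcam and Muc2 had them in Casp1-null liver only. The averages of both lists therefore rest in part on values not shown above background. Among enterocyte markers well above the medians, Cdhr5 averaged 9.39 in wild type and 9.48 in Casp1-null liver, and Fabp2 9.75 and 9.14. The part of these markers in the lower Sis and Enpep values was not tested.

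**Figure D5:**
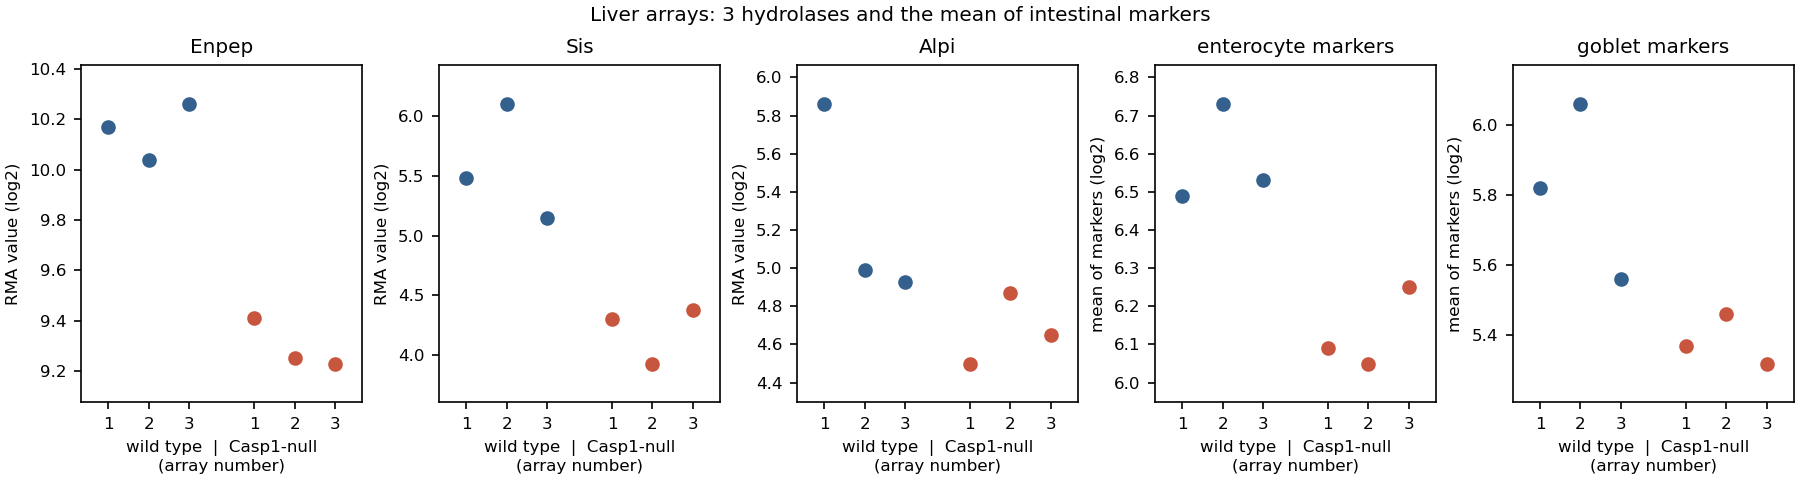
Values on the 6 liver arrays: Enpep, Sis and Alpi (log2) and the means of 8 enterocyte and 6 goblet markers (log2), with array numbers 1 to 3 per genotype. In all 5 panels the Casp1-null points lie below the wild-type points, for Enpep at 9.23 to 9.41 against 10.04 to 10.26. The genotypes did not overlap in liver for 5 of the 10 members, of which 3 are shown, and for 20% of all genes. For Alpi, not called by limma (adjusted p = 0.449), the Casp1-null arrays and wild-type arrays 2 and 3 lie under the lowest liver median (5.187). For Sis the Casp1-null arrays and wild-type array 3 lie under it.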

How the data were processed

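Log2 expression values per probe set were deposited by the authors, made with RMA per the submitters' processing notes. The version, array annotation and genome build of these values are not given in the sources used here. Of 35556 probe sets, 21218 carried 1 gene symbol, 1881 several and 12457 none. Values were used as deposited and compared by two-sided tests of linear models in limma (version 3.58.1, R 4.3.3; lmFit and eBayes), with Benjamini-Hochberg adjustment over all probe sets. The 18 intestinal arrays were fitted together (12 residual degrees of freedom), liver alone (4), and segments against liver on 24 arrays (16). Each SE and interval pools the spread of all groups in its fit. For the mean over segments, arrays of the same genotype and number were averaged before the fit. Fold changes from log2 differences are relative intensities. A fold against a group below the lowest median of any array from that organ is a lower bound, computed against that median. The number of arrays limits the precision. The fits were checked on simulated data.

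Text names all members, Casp1, up to 4 called genes by p from each other list and comparison, and the genes most like each member. Transcripts outside that rule (Gata5, Tff3, Krt20, Cdh17, Slc51a, Alppl2) were chosen after their values were seen. The genes given in percent of duodenum and the markers named for their level in liver were also not chosen by that rule. Members and lists were chosen with earlier results of these data known. Gene identifiers of 21185 probe sets were in RefSeq's GRCm38.p6 table and 33 were not, and promoters came from RefSeq through symbols (10 of 10 members). Promoters were compared in Python 3.11.15 with Biopython 1.88. Alternatives were leaving out each array, other arrays in the fit, a replicate block, weights per array, centring of medians, a second quantile normalization, a filter on low values and a mean-variance trend. Same-numbered arrays were not treated as pairs, apart from the mean over segments and the replicate block. The labels do not say that a number marks a mouse, so the averages over segments may mix mice. Deviations of same-numbered arrays from group means correlated at only -0.098 to 0.173 between segments and -0.376 to 0.304 between genotypes.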

Additional observations from a re-analysis of the deposited data

Results flagged for a closer look

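The genotype difference in liver differed from the mean difference of the intestinal segments for Sis (adjusted p = 0.00076) and for Enpep (adjusted p = 0.00239) by an interaction term in limma. Both differed by more in liver than in intestine, in the direction of lower values in all 3 Casp1-null livers than in all 3 wild-type livers. For Sis the Casp1-null livers lay under the array medians, so its fitted size rests on values not shown above background. Both calls held in all 31 alternatives run for this comparison, while the count of called members ranged from 2 to 3. The comparison was added after the liver values had been seen, and the alternatives use the same arrays, so they are no independent evidence. Its fit pools the spread of liver and intestine.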

How the results depend on the processing

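No called result of the members was reversed by an alternative. Of 63 called member results, 48 were called in every alternative run, and of 87 not called, 74 were called in none. The counts of called members that moved by over 1.5 times were these. In ileum, the genotype count of 2 became 0 in a fit of the ileal arrays alone, 0 without the 3 arrays high in stroma or pancreas markers (chosen after seeing the data), 1 with the replicate block, and 0 to 2 when single arrays were left out. In liver, the count of 1 became 2 in a fit of all 24 arrays, 0 with the replicate block, and 0 to 1 without single arrays. For the mean over segments the count of 0 ranged from 0 to 1 without single numbers, the call being Tmprss15 without Casp1-null number 2 (0.84, adjusted p = 0.02). From wild-type duodenum to jejunum, array weights gave 7 in place of 4. From Casp1-null duodenum to jejunum, the count of 6 ranged from 3 to 6 without single arrays, and the interaction count of 0 ranged from 0 to 1. With the replicate block, the calls lost were Akp3 in ileum (adjusted p = 0.0864), Enpep in liver (0.0977), Sis between jejunum and ileum in wild type (0.0549) and Casp1-null (0.06), and Anpep between Casp1-null duodenum and jejunum (0.0985). Fewer arrays enter a fit that leaves arrays out, and a fit of the ileal arrays alone no longer pools the spread of the other segments. The part of each in the lost calls was not tested, nor were other causes. Values under the array medians limit Tmprss15 below the duodenum, Lct, Treh and Tmprss15 in liver, and Sis and Alpi in Casp1-null liver.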
